A study of Mus musculus with 17 samples.

Results

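Liver RNA of Khdc3-null mice of mixed ancestry (KO_star, 6 libraries) was compared with liver RNA of wild-type mice of pure ancestry (WT, 4 libraries). The comparison covered all 15711 genes with a deposited value of at least 10 in at least 3 of these 10 libraries, out of 27020 genes in the table. KO_star mice were genetically null females born to heterozygous parents, with WT and KO mice among the grandparents, and WT mice were genetically wild type with WT ancestors. Measured beside them were KO mice, null with KO ancestors (3 libraries), and WT_star females, genetically wild type with the same kind of mixed grandparents and heterozygous parents (4 libraries). All mice were 8 weeks old, the tissue label was liver and the cell type label hepatocyte. KO_star differed from WT in both the Khdc3 genotype and the ancestry, and the contributions of these cannot be told apart in this comparison alone. The labels give no strain, litter or batch and no sex for the WT and KO mice, and do not say whether the mice within a group were littermates. The p-values therefore cover just the variation among the libraries at hand.

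KHDC3 is a protein of the subcortical maternal complex, an assembly in the oocyte and the early embryo that also holds NLRP5, OOEP and TLE6, and Khdc3 is known as a maternal effect gene. The adult liver makes plasma proteins, bile acids and lipoproteins, and it oxidises hormones and foreign compounds with cytochrome P450 enzymes before they are coupled to soluble groups by conjugating enzymes. Many of the P450 genes, those of the Cyp2c family among them, stand in clusters of near-identical neighbours on one chromosome.

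A deposited value was the number of reads of a gene divided by a size factor of its library, and the gene reads came to between 17.62 and 26.7 M (mega) per library. The 14 hepatocyte markers, Alb and Hnf4a among them, were all present, and none was called different between KO_star and WT. Markers of bile duct, endothelial, stellate and blood cells were also present, so the libraries also held RNA of other liver cells, and fewer cells of a type cannot be told apart from less RNA per cell. Khdc3 itself (chromosome 9, 73101836 to 73104438 on GRCm38) had 0 to 1 read per library in WT and 0 to 4 in KO_star, too few to be tested, and its level could not serve as a check of the genotype labels.

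Some libraries stood apart from their group. The library labelled KO_star 13 had WT-like levels near Khdc3. Of 18 genes within 20 Mb of Khdc3 that were called in KO against WT (2.92% of all genes tested were called there) with no overlap between those libraries, it was nearer to the WT mean at 16, while the other 5 KO_star libraries were nearer to WT at 4 to 9 and the WT_star libraries at 13 to 16. On the other chromosomes it was nearer to KO at 187 of 421 such genes, within the 109 to 189 of the other KO_star libraries. The WT_star libraries spanned 141 to 215 there, so this count does not tell KO_star from WT_star. The library labelled KO_star 16 had 226 genes at least 4-fold from the median of the other KO_star libraries, against 86 to 140 genes for the others. There the fetal imprinted RNA H19 had a value of 17510, against 25.41 to 181.4 in the other KO_star libraries, and 34 of 35 cell division genes had their highest KO_star value. Pancreatic acinar markers summed to 4579 there and to 435.1 to 758.8 in the other KO_star libraries, and muscle markers to 2045 against 18 to 52.03. Values with and without these libraries are given where a result rests on them.

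In all, 75 genes rose and 39 fell in KO_star against WT, 114 of 15711 or 0.726% of the genes tested (0.477% higher and 0.248% lower). Genes were called with limma on log2(value + 1), 1 model over the 17 libraries, at a Benjamini-Hochberg adjusted p under 0.05. The genes that rose had a median log2 difference of 0.95 and those that fell of -0.80, against -0.001 over all genes tested. For 98 of the 114 called genes (62 higher, 36 lower) the 6 KO_star and the 4 WT libraries did not overlap. Over all genes tested 2.93% did not overlap, 1.34% higher and 1.6% lower in KO_star. A log2 difference of at least 1 in size was found for 51 called genes, 36 higher and 15 lower. Of the called genes, 100 were protein coding, 6 processed pseudogenes and the rest non-coding transcripts. The count was 52, 52 or 54 when WT library 26, 27 or 28 was left out, and 70 without KO_star 17, and 38 genes (27 higher, 11 lower) kept the call in each of 21 alternative settings, a required log2 difference of 1 left aside. Folds are taken from log2(value + 1) and so come out too small for genes with low values. Genes named below beyond the largest changes, members of the gene lists and the called neighbours of Khdc3 were chosen after their values were seen.

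**Figure D1:**
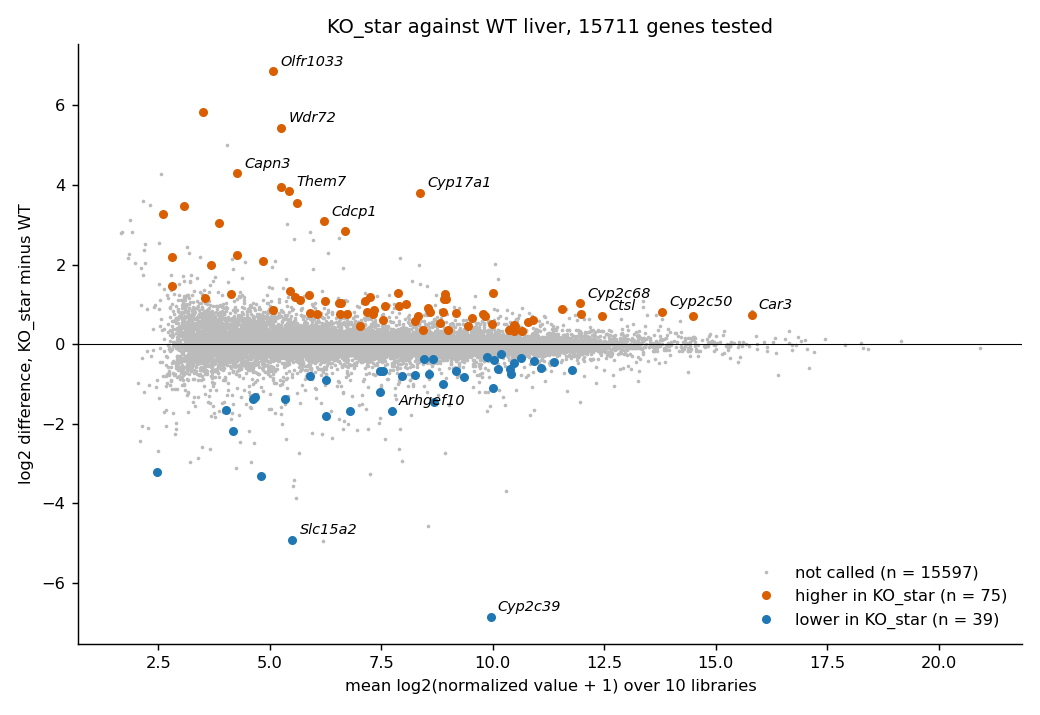
Log2 difference of KO_star minus WT (y axis) against the mean log2(normalized value + 1) over the 10 libraries (x axis) for each of 15711 genes tested; grey points were not called, orange points were called higher (75) and blue points called lower (39) in KO_star. Cyp2c39 lies lowest at a log2 difference of -6.85, Olfr1033 highest at 6.86, and most called genes lie less than 1 log2 unit from 0.

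The largest group of neighbouring called genes lay on chromosome 19 and held P450 and arsenic-methylating enzymes that moved in opposite directions. Cyp2c39, a P450 that can oxidise retinoic acid in mice (chromosome 19, 39510862 to 39568529), was nearly lost in KO_star. Its neighbours Cyp2c68 and Cyp2c50, the latter an epoxygenase of arachidonic acid, rose, as did Cyp17a1, the steroid hydroxylase and lyase of androgen synthesis, and As3mt, which methylates arsenite. The promoter sequences of 4 of these genes, from 250 bases before to 50 bases after the RefSeq start on GRCm38.p6, are shown because the first 3 are neighbours of one family that moved in opposite directions, and the last stands in the same run of called genes. Capitals mark matches to a set of motifs searched on both strands: the TATA box as TATAAA, the NF-Y box as CCAAT, an HNF4 motif as CAAAGTCCA, an NR5A motif as CAAGGTCA, a STAT motif as TTCNNNGAA and the DR1 element of nuclear receptors.
Cyp2c39 (chr19:39510572-39510871, plus strand, fell): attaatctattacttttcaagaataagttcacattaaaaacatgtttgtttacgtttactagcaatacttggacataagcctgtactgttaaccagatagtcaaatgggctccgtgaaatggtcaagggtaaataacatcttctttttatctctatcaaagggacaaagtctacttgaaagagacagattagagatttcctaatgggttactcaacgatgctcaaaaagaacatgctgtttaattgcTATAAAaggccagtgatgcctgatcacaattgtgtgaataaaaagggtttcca
Cyp2c68 (chr19:39741052-39741351, minus strand, rose): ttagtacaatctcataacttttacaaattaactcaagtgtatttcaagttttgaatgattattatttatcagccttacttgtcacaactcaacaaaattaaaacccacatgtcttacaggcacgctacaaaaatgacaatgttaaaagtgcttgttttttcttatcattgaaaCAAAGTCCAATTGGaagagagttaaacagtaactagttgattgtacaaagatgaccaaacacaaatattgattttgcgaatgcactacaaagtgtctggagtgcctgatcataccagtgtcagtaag
Cyp2c50 (chr19:40089429-40089728, plus strand, rose): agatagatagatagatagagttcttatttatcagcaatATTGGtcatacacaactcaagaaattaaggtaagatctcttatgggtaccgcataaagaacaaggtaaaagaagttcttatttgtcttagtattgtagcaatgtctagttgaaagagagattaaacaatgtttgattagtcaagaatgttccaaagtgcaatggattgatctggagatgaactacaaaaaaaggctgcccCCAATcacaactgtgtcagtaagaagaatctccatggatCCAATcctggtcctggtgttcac
As3mt (chr19:46707208-46707507, plus strand, rose): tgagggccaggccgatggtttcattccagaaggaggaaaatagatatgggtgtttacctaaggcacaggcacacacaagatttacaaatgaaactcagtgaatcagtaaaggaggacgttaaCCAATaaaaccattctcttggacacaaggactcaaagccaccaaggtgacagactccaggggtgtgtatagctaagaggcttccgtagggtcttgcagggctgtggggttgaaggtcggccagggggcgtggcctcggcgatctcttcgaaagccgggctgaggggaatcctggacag
Cyp2c39 held TATAAA, which began at offset -3 from the RefSeq start. Cyp2c68 held CAAAGTCCA overlapping a CCAAT, with a CCAAT of the other strand beside it. Cyp2c50 held 3 CCAAT matches and As3mt 1. Among 32851 RefSeq promoters of this length, TATAAA was found in 13.6%, CCAAT in 37.4%, CAAAGTCCA in 0.475%, CAAGGTCA in 1.56%, TTCNNNGAA in 8.30% and DR1 in 0.0396%. The promoters of Cyp2c39 and Cyp2c68 were identical at 57.1% of aligned positions, and each of them shared 51.6% with that of Cyp2c50. A match is a description of the letters only, and the absence of one says only that these letters are not in the window.

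Cyp2c39 had values of 19780, 23300, 13890 and 13280 in the 4 WT libraries and 111.9 to 201.0 (median 132.3) in the 6 KO_star libraries. Every KO_star library was thus far below every WT library, and the log2 difference was -6.85 ± 0.85 (SE; limma, adjusted p 0.0014). KO libraries had 179.3 to 263.4, and the WT_star libraries spread from 128.1 to 7421. The neighbour Cyp2c68 (39688834 to 39741054) had 2116, 2768, 2873 and 2649 in WT and 4732 to 5851 (median 5255) in KO_star, without overlap. Its log2 difference was 1.03 ± 0.08 (SE; limma, adjusted p 2.32e-06), with 5862 to 6090 in KO and 4610 to 5108 in WT_star. Cyp2c50 (40089688 to 40113950) rose from 10450, 10510, 9948 and 9776 in WT to 14500 to 20180 (median 18190) in KO_star, a log2 difference of 0.82 ± 0.12 (SE; limma, adjusted p 0.00265). The change of Cyp2c50 in KO against WT was 0.43 (limma, adjusted p 0.124) and that of KO_star against KO 0.39 (limma, adjusted p 0.146). Of 13 Cyp2c genes tested, 2 rose and 1 fell (0.726% of all genes were called), and the summed value of the family lay between 110400 and 126300 in WT and between 114900 and 129400 in KO_star. Cyp2c genes are near-identical copies, and how the counting shared reads among them is uncertain.

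Further along chromosome 19 stood Cyp17a1 (46667165 to 46673172) and As3mt (46707458 to 46741099). Cyp17a1 had 69.36, 83.78, 53.65 and 62.82 in WT and 463.6 to 1494 (median 1050) in KO_star. All 6 KO_star libraries lay above all WT libraries, a log2 difference of 3.81 ± 0.41 (SE), or 14.01-fold (limma, adjusted p 0.000373). It spanned 582.4 to 2018 in KO and 1243 to 3244 in WT_star, so that WT was the low group. As3mt had 271.2, 317.0, 310.5 and 324.3 in WT and 546.0 to 772.7 (median 683.6) in KO_star, 2.20-fold higher without overlap (log2 1.14 ± 0.11 SE; limma, adjusted p 4.16e-05). The KO (621.5 to 876.6) and WT_star (658.1 to 918.6) libraries overlapped KO_star, with some above it. The mitochondrial transporter Sfxn2, a neighbour of Cyp17a1, rose by a log2 difference of 0.72 ± 0.10 (SE; limma, adjusted p 0.0014), from a mean of 675.3 ± 78.3 (SD, n = 4) to 1107 ± 82.8 (n = 6). The stretch from 39510862 to 47864790 was bounded by its outermost called genes, so a high share called within it follows from its definition. In all, it held 14 called genes of 110 tested, 9 higher and 5 lower (0.726% of all genes were called). Those that fell were Cyp2c39, the kinase gene Slk (log2 -0.62), Cwf19l1 (-0.996), Sec31b (-0.67), a relative of a coat protein of vesicles leaving the endoplasmic reticulum, and Sfr1 (-0.67), a cofactor of recombination. The calls of Sec31b and Sfr1 were lost without WT 26, 27 or 28, and that of Cwf19l1 without WT 25 or 26. That of Sec31b was also lost without KO_star 12, 13, 14, 16 or 29.

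**Figure D2:**
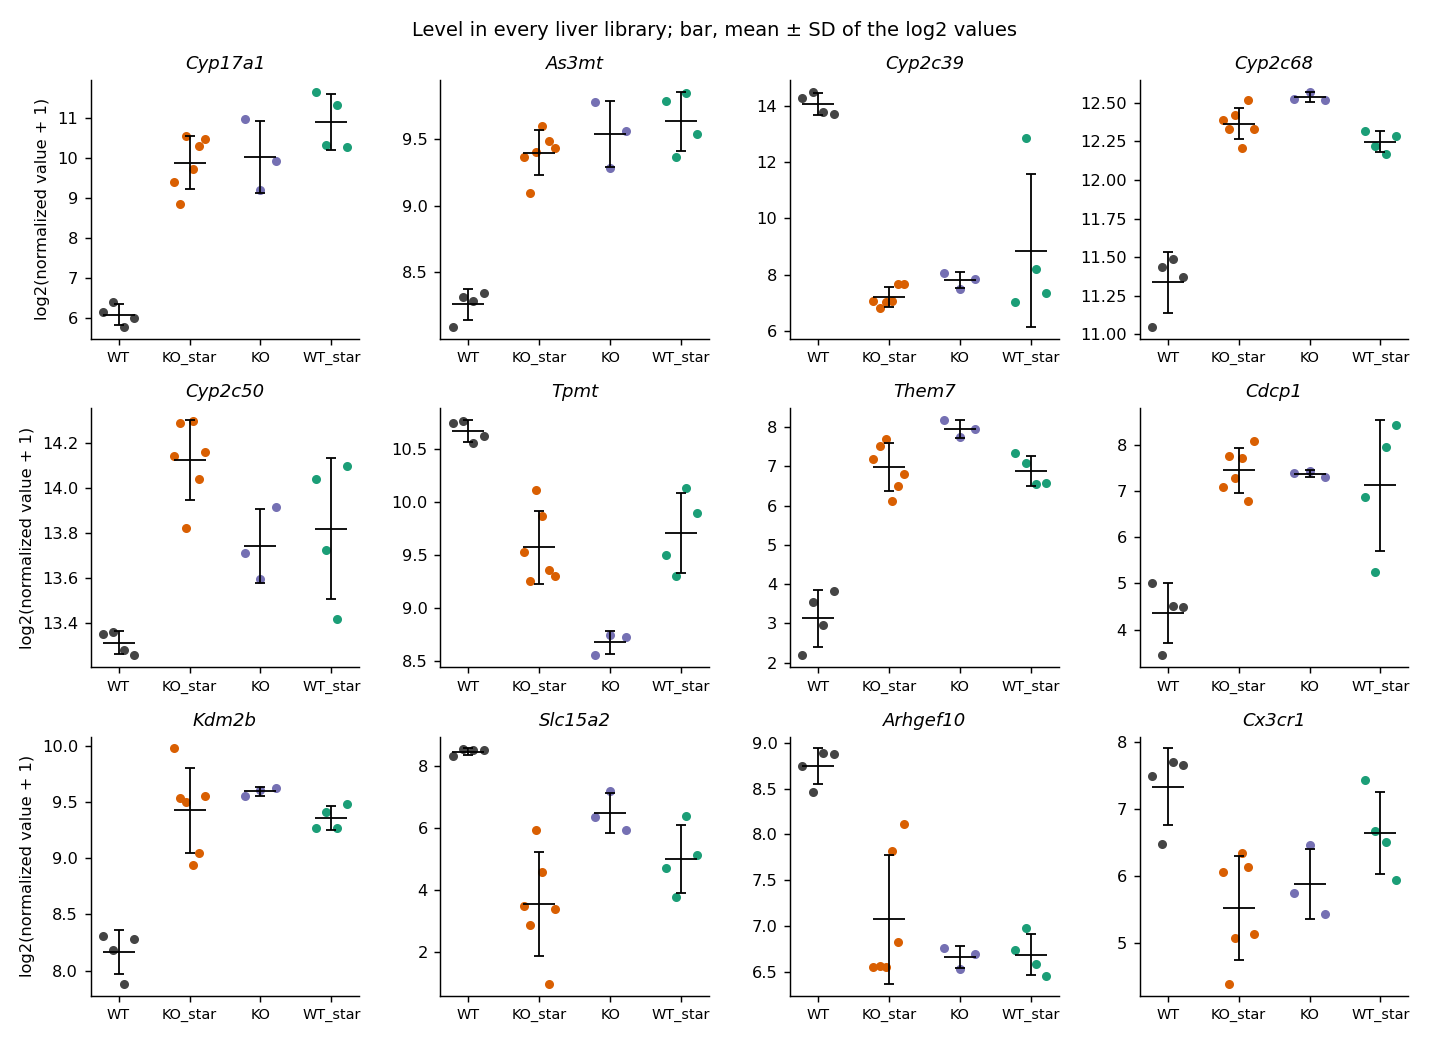
Each panel gives log2(normalized value + 1) of a gene (y axis) in every liver library of WT (black), KO_star (orange), KO (purple) and WT_star (green); horizontal lines are the mean and error bars the SD of the log2 values. In these 12 genes no KO_star library overlaps a WT library. In all of them but Cx3cr1, no KO or WT_star library overlaps WT either. For Cx3cr1 the WT_star libraries span 60.85 to 172.9, against 88.71 to 206.6 in WT.

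Other genes with large increases lay outside chromosome 19. Them7, a member of the acyl-CoA thioesterase superfamily (chromosome 2, 105224320 to 105379796), had 3.557, 10.68, 6.849 and 13.17 in WT and 68.15 to 207.5 (median 128.0) in KO_star. It was high in every KO_star library, 14.3-fold over WT (log2 3.84 ± 0.33 SE; limma, adjusted p 6.35e-06), with 212.2 to 288.1 in KO and 92.92 to 161.2 in WT_star. Cdcp1, a transmembrane substrate of SRC family kinases, had 31.12, 9.856, 21.69 and 21.28 in WT and 108.9 to 270.8 (median 180.6) in KO_star, 8.54-fold higher (limma, adjusted p 0.00575). Kdm2b, a histone demethylase that binds CpG islands with a polycomb complex, rose from 316.6, 289.9, 235.1 and 311.1 in WT to 491.3 to 1005 (median 730.7) in KO_star, 2.39-fold (limma, adjusted p 0.000439). None of these 3 genes overlapped between the groups. Ift81, of the intraflagellar transport machinery of cilia, rose from a mean of 46.7 ± 2.06 (SD, n = 4) to 101.5 ± 17.02 (n = 6; limma, adjusted p 0.000942).

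Capn3, a calpain protease known from muscle (chromosome 2), had values of 1.141 to 3.04 in WT and 28.38 to 87.65 (median 67.79) in KO_star, a log2 difference of 4.29 ± 0.37 (SE; limma, adjusted p 6.35e-06). A value of 3 reads was 2.38 to 3.55, so Capn3 was at the limit of detection in WT, and the gene overlaps Ganc, which is read from the same strand. The non-coding transcript 2610507I01Rik had the smallest p of all genes, with 3.424 to 8.893 in WT and 71.96 to 180.6 in KO_star (log2 3.94 ± 0.29 SE; limma, adjusted p 1.98e-06). The olfactory receptor gene Olfr1033 had 0.8893, 2.464, 1.141 and 0 in WT and 174.3 to 367.9 (median 207.8) in KO_star. Its neighbour Olfr1034 was at 0 reads in all 4 WT libraries and at 36.96 to 68.95 in KO_star. Both genes varied widely elsewhere: Olfr1033 spanned 1.776 to 227.6 in KO and 0.8958 to 485.1 in WT_star. Nebulin (Neb), of the thin filaments of muscle, had 516.8 to 720.3 in WT and 909.0 to 2580 in KO_star (limma, adjusted p 0.0487), and the laminin receptor subunit Itga6 93.6 to 176.1 and 212.8 to 503.7 (limma, adjusted p 0.0419). The calls of Olfr1033, Neb, Itga6, the ubiquitin ligase adaptor Spsb4 and the initiation factor subunit Eif3j1 were lost when single WT libraries were left out. That of Olfr1033 was lost without any single WT or KO_star library, with edgeR and with library weights. Those of Itga6 and Eif3j1 were also lost without some single KO_star libraries.

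Genes that fell on other chromosomes included a peptide transporter and a GTPase activator. Slc15a2, the PEPT2 transporter of small peptides (chromosome 16, 36750177 to 36784962), had 315.7, 368.8, 358.4 and 358.7 in WT. In KO_star it had 0.9474 to 60.35 (median 9.797), so that no library came near WT (log2 -4.92 ± 0.72 SE; limma, adjusted p 0.00342). KO libraries had 59.04 to 142.9 and WT_star libraries 12.56 to 82.33, and the difference of KO_star from KO was -2.93 (limma, adjusted p 0.0763). Arhgef10, an exchange factor of small GTPases, had 428.6, 352.4, 471.4 and 469.2 in WT and 93.17 to 276.7 (median 103.4) in KO_star (log2 -1.67 ± 0.27 SE; limma, adjusted p 0.00575). KO_star 16 and KO_star 29 were the high libraries at 224.3 and 276.7, and the other 4 lay at 93.17 to 112.7, beside 91.45 to 107.6 in KO. Ephb6, an Eph receptor without kinase activity, had 226.0 to 377.1 in WT and 106.4 to 138.3 in KO_star (log2 -1.20 ± 0.21 SE; limma, adjusted p 0.00768). KO libraries, at 276.9 to 289.4, lay within the WT range, and the log2 difference of KO_star from KO was -1.16 (limma, adjusted p 0.0186).

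Mme, the membrane peptidase neprilysin, had 587.7 to 1284 in WT and 172.8 to 383.1 in KO_star (limma, adjusted p 0.0365). The chemokine receptor gene Cx3cr1 of monocytes and macrophages had 179.6, 88.71, 206.6 and 200.6 in WT and 20.07 to 80.83 in KO_star (log2 -1.81 ± 0.39 SE; limma, adjusted p 0.0436). Its annotated span overlaps 9 other genes, and none of 12 Kupffer cell and macrophage markers was called by limma (1 at an unadjusted p under 0.05). The type IV collagen gene Col4a4, whose chain is made in specialised basement membranes such as that of the kidney glomerulus, had 168.2 to 279.7 in WT and 33.88 to 134.7 in KO_star (log2 -1.68 ± 0.37 SE; limma, adjusted p 0.0455). Its head-to-head neighbour Col4a3 had 209.8 to 424.2 in WT and 22.18 to 207.8 in KO_star, also without overlap, but was not called (log2 -2.16 ± 0.63 SE; limma, adjusted p 0.156). In KO, Col4a4 stood at 20.18 to 23.08 and Col4a3 at 3.936 to 5.605. Col4a4 was the single called gene of 26 basement membrane and matrix genes, where 0.726% of all genes were called. For 3 of the 26 the groups did not overlap (2.93% over all genes). The collagen gene Col26a1, outside that list, was also called lower. It had 28.75 to 79.15 in WT and 4.73 to 21.28 in KO_star (log2 -2.19 ± 0.39 SE; limma, adjusted p 0.0106). The homeobox gene Mkx fell from 399.5 to 434.5 in WT to 177.4 to 300.7 in KO_star (limma, adjusted p 0.0014), and the antiproliferative gene Tob2 from 1708 to 1974 to 841.2 to 1636 (limma, adjusted p 0.0365). Dio1, the liver deiodinase that activates thyroid hormone, fell from a mean of 4583 ± 410 (SD, n = 4) to 2929 ± 241 (n = 6; log2 -0.65; limma, adjusted p 0.0334). The calls of Mme, Cx3cr1, Col4a4, Tob2 and Dio1 were each lost without at least 3 of the single WT libraries. Those of Mme, Cx3cr1, Tob2 and Dio1 were also lost without some single KO_star libraries.

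Called genes were not spread evenly along the genome. Chromosome 19 had 16 called genes of 528 tested (3.03%), chromosome 13 14 of 655 (2.14%), chromosome 9 17 of 879 (1.93%) and chromosome 2 14 of 1164 (1.20%), while the X chromosome had 0 of 468 against 0.726% over all genes. With called genes joined when within 2 Mb of each other, 19 runs of at least 2 genes held 62 of the 114 called genes, and 7 runs of at least 3 held 38. A run ends at its outermost called genes, so a high share called within a run follows from its definition. After the stretch of chromosome 19, the next in size lay on chromosome 13 from 63285043 to 64441773. There 6 of 14 tested genes rose, among them Ctsl, the lysosomal protease cathepsin L, Fancc, of the Fanconi DNA repair pathway, and the kinase gene Cdk20. Ctsl had 3978 to 4449 in WT and 5328 to 7590 (median 6881) in KO_star (log2 0.72 ± 0.09 SE; limma, adjusted p 0.000561). On chromosome 2 a run from 119742337 to 122056598 held Itpka, which fell, and Jmjd7, Ehd4, Capn3 and Eif3j1, which rose. On chromosome 5 the run held Acad10, Ift81 and Kdm2b, on chromosome 11 Rnf187, Guk1 and 2610507I01Rik, and on chromosome 6 Dysf, Nat8 and Isy1, all higher in KO_star. The calls of Fancc, Cdk20, Jmjd7, Dysf, Isy1 and Rnf187 were lost without WT 26 or 27, that of Guk1 without WT 27 or 28 and that of Itpka without WT 26. That of Fancc was also lost without WT 25 or 28 and without KO_star 12, 13, 14 or 16. Those of Jmjd7 and Isy1 were also lost without some single KO_star libraries. Of the 114 called genes, 59 overlap another annotated gene, 45 of them on the opposite strand, and with no strand setting given their reads cannot be told apart.

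Close to Khdc3, 7 of 145 genes tested within 10 Mb were called (4.83% against 0.726% over all genes), 2 higher and 5 lower. Without the library labelled KO_star 13 the count was 9, and with any other single library left out it lay between 0 and 4. The nearest changed gene with a large difference was Wdr72, a WD repeat gene known for its part in enamel formation (chromosome 9, 74110356 to 74283308), 1.09 Mb from Khdc3. It had 6.225, 1.643, 2.283 and 3.04 in WT and 0 to 2.352 in WT_star, at or near the value of 3 reads. In KO_star it had 268.6, 461.6, 487.4, 419.7 and 341.7 in 5 libraries and 2.112 in the library labelled KO_star 13, and in KO 554.0 to 855.9. The 5 high libraries and the 3 KO libraries thus stood apart from all wild-type libraries, with KO_star 13 among the latter. The log2 difference to WT was 5.44 ± 1.14 (SE; limma, adjusted p 0.0455), and 6.60 ± 0.35 (SE; limma, adjusted p 1.88e-08) without that library; over its 22 alternatives the adjusted p ranged from 2.35e-10 to 0.878.

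The gamma-secretase subunit genes Aph1b and Aph1c, on the other side of Khdc3, had lower values in most KO_star libraries. Aph1c had 339.7, 373.7, 300.2 and 416.5 in WT, 311.5 to 359.2 in WT_star and 16.87 to 35.87 in KO. In KO_star it had 52.7, 26.47, 62.61, 156.3 and 52.03, and 373.8 in the library labelled KO_star 13, which was again at the wild-type level. Its log2 difference was -2.13 ± 0.53 (SE; limma, adjusted p 0.0905), and -2.57 ± 0.36 (SE; limma, adjusted p 0.00214) without that library, the lowest adjusted p over its alternatives, which reached 1. Aph1b had 313.8 to 366.8 in WT and 132.8 to 289.9 in KO_star (log2 -0.80 ± 0.18 SE; limma, adjusted p 0.0485). Gsta4, which conjugates the lipid peroxidation product hydroxynonenal, had 783.0 to 1065 in WT, 848.0 in KO_star 13 and 440.5 to 497.8 in the other KO_star libraries (log2 -0.83 ± 0.17 SE; limma, adjusted p 0.0349). Without KO_star 13 its log2 difference was -0.97 (limma, adjusted p 0.0009, the lowest over its alternatives, which reached 1). Those alternatives included a required log2 difference of 1, which a gene with a smaller difference can hardly pass. The non-coding C920006O11Rik beside it went the other way, with 5.707 to 8.106 in WT, 6.336 in KO_star 13 and 42.35 to 55.89 in the other 5. Polr2m, Cgnl1 and Tcf12, between these genes, fell by 0.24, 0.44 and 0.33 on the log2 scale. The calls of Wdr72, Aph1b and Gsta4 were each lost without WT 26, 27 or 28. That of Gsta4 was also lost without KO_star 12, 14, 16, 17 or 29.

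**Figure D3:**
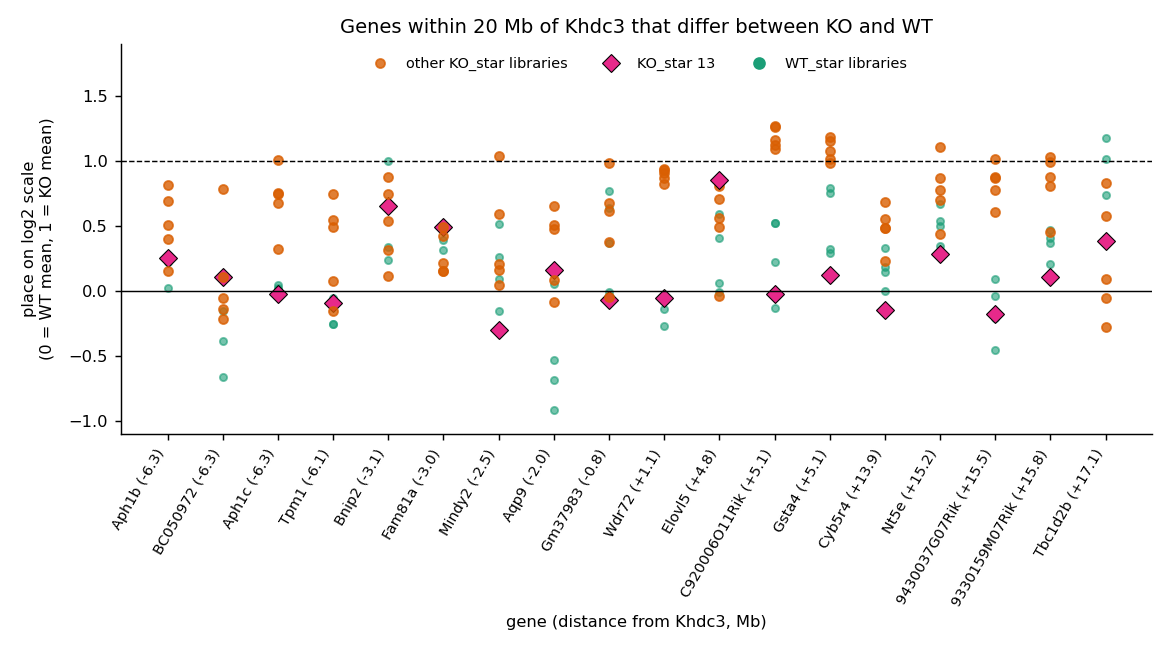
For 18 genes within 20 Mb of Khdc3 called in KO against WT with no overlap, the place of each library between the WT mean (0) and the KO mean (1) on the log2 scale (y axis) is plotted by gene, in order along chromosome 9 with the distance from Khdc3 in Mb in brackets (x axis); orange points are 5 KO_star libraries, the pink diamond the library labelled KO_star 13, and green points the WT_star libraries. The diamond is nearer to the WT mean for 16 of the 18 genes.

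The count of called genes also turned on this library in the comparison of KO_star with WT_star, which differ in genotype within mixed ancestry. By limma 0 genes were called (smallest adjusted p 0.129; 1166 genes at an unadjusted p under 0.05; 0 by edgeR and 62 by DESeq2). Without the library labelled KO_star 13, 20 genes were called by limma, 13 higher and 7 lower. Genes called only once that library is left out are chosen in part by its distance from the other KO_star libraries, so its level at them is no separate evidence. Of the 20 genes, 10 lay on chromosome 9, all between 61.9 and 106.0 Mb. The whole chromosome held 5.59% of all genes tested. Processed pseudogenes were 7 of the 20 and made up 4.77% of all genes tested. Wdr72 led with a log2 difference of 7.52 ± 0.35 (SE; limma, adjusted p 2.43e-09). Rplp1, of the ribosomal stalk and on the same chromosome, differed by 0.83 ± 0.11 (SE; limma, adjusted p 0.00471). The processed pseudogene Gm5869 on chromosome 5 had 291.7 to 330.5 in WT_star, 311.5 in KO_star 13 and 714.2 to 859.4 in the other KO_star libraries.

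Among 49 gene lists of liver function and cell types, changes of single genes passed the test in few. Of 25 genes of cholesterol synthesis and SREBP2 targets, all 25 had a log2 difference above 0 (median 0.37), against 49.7% of all genes (median -0.001), but 0 were called by limma and 8 had an unadjusted p under 0.05, against 1920 or 12.2% of all genes tested. Insig1, which holds SREBP in the endoplasmic reticulum, had 6024 to 9827 in WT and 8142 to 22300 in KO_star (log2 0.94 ± 0.27 SE; limma, adjusted p 0.15). The mean log2 level of the list was 10.8 to 11.6 in WT and 11.1 to 12.3 in KO_star, with KO_star 16 the highest library, and without it the median was 0.27. Of 21 genes of fatty acid and triglyceride synthesis, 18 lay above 0 (median 0.19) and 11 had an unadjusted limma p under 0.05 (12.2% over all genes). Just 1 was called, where 0.726% of all genes were. That gene was Acss2, the cytosolic acetyl-CoA synthetase, with 2126, 1914, 1918 and 2355 in WT and 3048 to 4910 (median 3736) in KO_star, 1.86-fold higher without overlap (limma, adjusted p 0.00352). KO libraries had 2045 to 2756, and KO_star was above KO by 0.73 (limma, adjusted p 0.0275). Of 38 genes of fatty acid oxidation and ketogenesis none was called (median -0.04; 1 at an unadjusted p under 0.05), and none of 22 lipoprotein, 25 bile acid, 28 urea cycle and amino acid, 25 one-carbon, 22 glucose and glycogen and 57 nuclear oxidative phosphorylation genes, with 2 to 4 genes of each at an unadjusted p under 0.05.

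Of 42 interferon response genes, 39 lay above 0 (median 0.48), 25 had an unadjusted p under 0.05 (12.2% over all genes) and 1 was called (0.726% over all genes). The called gene Usp18, a protease that removes ISG15 from proteins, had 121.8, 66.53, 89.03 and 88.16 in WT and 106.1 to 254.4 (median 214.4) in KO_star (log2 1.08 ± 0.22 SE; limma, adjusted p 0.0327). The groups overlapped in KO_star 17 and WT 25. The mean log2 level of the list was 7.01 to 7.25 in WT 26, 27 and 28, 7.73 in WT 25 and 7.53 to 8.16 in KO_star, so WT 25 lay within the KO_star range. The list does not hold every gene known to respond to interferon. Outside it, Cmpk2 (log2 1.03; limma, adjusted p 0.0427), Eif2ak2 (0.36; limma, adjusted p 0.0282) and Lgals3bp (0.46; limma, adjusted p 0.0370) were called higher. Their calls were each lost without WT 26, 27 or 28. H2-Q10, a secreted class I molecule of liver, was the 1 called gene of 26 of antigen presentation, at 16590 to 18250 in WT and 19310 to 36730 in KO_star (log2 0.71 ± 0.15 SE; limma, adjusted p 0.0367), and H2 genes are near-identical copies. Of the 26 antigen presentation genes, 17 lay above 0 (median 0.17) and 12 had an unadjusted limma p under 0.05. For 5 of them the groups did not overlap (2.93% over all genes). The calls of Usp18 and H2-Q10 were each lost without WT 26, 27 or 28, without KO_star 12, 13 or 14 and with only the 10 libraries fitted. Beside these, all 8 B cell and plasma cell markers tested lay above 0 (median 0.73, 0 called by limma, 4 at an unadjusted p under 0.05 against 12.2% over all genes), with a summed value of 776.2 to 1616 in WT and 1003 to 2607 in KO_star. Kupffer cell markers summed to 9563 to 10430 in WT and 6981 to 13860 in KO_star, and neutrophil and monocyte markers to 213.8 to 610.9 and 260.5 to 554.4. Of 12 Kupffer cell markers tested, 10 lay above 0 (median 0.22, 0 called by limma, 1 at an unadjusted p under 0.05). All 5 neutrophil and monocyte markers tested lay above 0 (median 0.825, 0 called by limma, 2 at an unadjusted p under 0.05). The part of these cells in the interferon and class I values was not tested.

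Among 38 phase II enzymes, which couple foreign compounds to soluble groups, 3 rose and 2 fell, where 0.477% and 0.248% of all genes did. As3mt, the glutathione transferase Gstm6 (log2 0.78 ± 0.13 SE; limma, adjusted p 0.00431) and Nat8, an acetyltransferase of cysteine conjugates (4.973 ± 2.24 to 22.97 ± 9.73, SD, n = 4 and 6; limma, adjusted p 0.00942), rose. Tpmt, which methylates thiopurine drugs, had 1719, 1737, 1501 and 1573 in WT and 612.5 to 1109 (median 696.2) in KO_star, without overlap (log2 -1.098 ± 0.17 SE; limma, adjusted p 0.00352). It was lower still in KO at 375.5 to 429.7, and KO_star stood above KO by 0.89 (limma, adjusted p 0.0273). The other gene that fell was Gsta4. Of 39 phase I enzymes outside Cyp2c none was called (3 at an unadjusted p under 0.05), and of 22 sex-biased liver genes Cyp17a1 alone. Of 75 cytosolic ribosomal protein genes, Rpl30 (592.8 to 729.4 in WT, 798.4 to 1365 in KO_star) and Rplp1 (2747 to 3440 and 3060 to 6180) rose, with limma adjusted p of 0.0349 and 0.038, while the list median was 0.02. Both calls were lost when any single WT library, or KO_star 14, 16, 17 or 29, was left out. KO_star 13 was the low KO_star library of Rplp1 at 3060. The log2 difference of Rplp1 was 0.77 with that library and 0.91 without it (limma, adjusted p 0.000535). Cell division genes had a median of -0.04, and -0.37 without KO_star 16, with 0 of 35 called and 1 at an unadjusted p under 0.05.

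**Figure D4:**
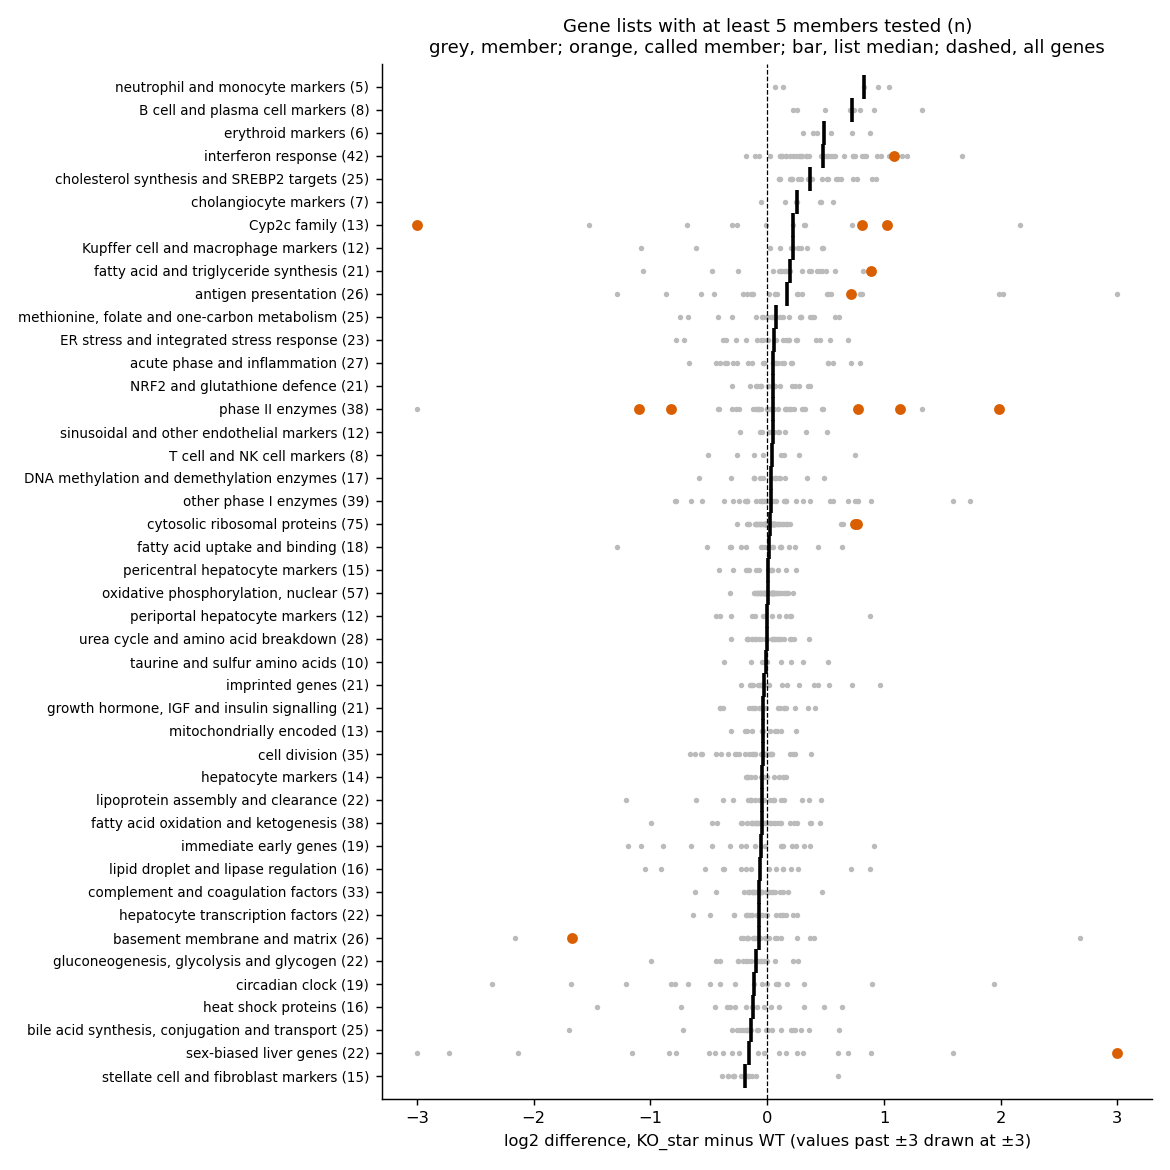
Log2 difference of KO_star minus WT (x axis, values past 3 drawn at 3) for the members of each gene list with at least 5 members tested (y axis, number tested in brackets). Grey points are members that were not called, orange points called members and black bars list medians. The dashed line marks the median of all genes tested (-0.001). Furthest to the right lie neutrophil and monocyte (median 0.825), B cell and plasma cell (0.73) and erythroid markers (0.49), with 0 called in each. The interferon response and cholesterol synthesis lists follow with medians of 0.48 and 0.37, and most metabolic lists lie around 0.

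KO_star could be set beside KO, which share the null genotype and differ in ancestry; 229 of the 15711 genes differed between them (1.46%). The count was 132 without KO_star 16 and 151 without KO_star 29. For some genes called in both comparisons the KO libraries overlapped WT. Car3, the carbonic anhydrase of muscle, fat and liver, had 36430 to 48480 in WT, 37030 to 41260 in KO and 44040 to 78970 (median 78090) in KO_star. Its difference was 0.74 ± 0.14 from WT (SE; limma, adjusted p 0.0209) and 0.84 from KO (limma, adjusted p 0.0136), and WT_star had 51600 to 66410. The KO_star library at 44040 lay within the WT range, and the call against WT was lost without WT 26 or 27. Metap1d, a mitochondrial methionine aminopeptidase, had 298.9 to 372.6 in WT, 340.9 to 489.9 in KO, 577.8 to 797.2 in WT_star and 512.4 to 684.3 in KO_star (0.81 from WT, limma adjusted p 0.00265; 0.60 from KO, 0.0339). Polm, a DNA polymerase of end joining, had 103.9 to 121.8 in WT, 121.1 to 130.9 in KO, 157.7 to 239.3 in WT_star and 169.6 to 248.8 in KO_star (0.85 from WT, limma adjusted p 0.00239; 0.70 from KO, 0.0192). For these 3 genes the WT_star libraries also lay above all WT libraries.

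Other genes with large differences in KO against WT were not called in KO_star. Pctp, which carries phosphatidylcholine, had 34.45 to 108.4 in WT, 797.6 and 852.2 in KO_star 12 and 13 and 21.79 to 102.7 in the other 4, and 1194 to 2351 in KO. KO_star thus held libraries at a WT level and libraries well above it, and its log2 difference was 1.07 ± 0.90 (SE; limma, adjusted p 0.672). Csad, the decarboxylase of taurine synthesis, spread likewise from 700.6 to 3688 in KO_star, with 864.4 to 1214 in WT and 5997 to 8163 in KO (limma, adjusted p 0.739). Prom2, a prominin of membrane protrusions, had 208.7 to 279.2 in WT and 1.056 to 78.04 in KO_star without overlap, but with a log2 difference of -3.87 ± 1.27 (SE) the adjusted p was 0.212 by limma. Lpl, the lipoprotein lipase, had 1298 to 5597 in WT, 926.5 to 6807 in KO_star and 271.3 to 374.7 in KO. Igf2bp3, a fetal RNA-binding protein, and Synj2, a phosphoinositide phosphatase, were low in KO (67.26 to 95.45 and 84.35 to 127.9) and overlapped WT in KO_star (296.5 to 864.6 and 282.3 to 555.4). For both, KO_star was above KO, by 2.51 (limma, adjusted p 0.000606) and 2.04 (limma, adjusted p 0.000456). Cd36, a fatty acid receptor, had 298.9 to 384.4 in WT and 436.7 to 755.1 in KO_star, with no overlap and a log2 difference of 0.65 ± 0.16 (SE; limma, adjusted p 0.0674).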

How the data were processed

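Liver RNA was extracted with a lipid tissue kit and sequenced from stranded, ribosomal RNA-depleted libraries, per the labels' protocols. cutadapt, HISAT2, DESeq2 and GRCm38 are named in the submitters' processing notes without versions, while a counting tool, an annotation and a strand setting were not stated there. The deposited signal of a gene was its read count divided by 1 size factor per library: 100.0% of the values were whole reads within 0.001 reads, and 1 read was worth 0.792 to 1.182. Positions are from GENCODE M21, matched for 26963 IDs.

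For testing, limma 3.58.1 (R 4.3.3) was fitted to log2(value + 1) in 1 model over the 17 libraries of 4 groups with a trended, robust variance, and Benjamini-Hochberg adjustment over 15711 genes. On counts simulated from the WT means, 86% of 100 genes changed 2-fold and 98% of 100 changed 4-fold were called, with 8 false calls. The changed genes were drawn from those above a set WT mean, so these rates do not cover genes at a few reads in WT. The recovered reads were also tested with edgeR 4.0.16 (quasi-likelihood) and DESeq2 1.42.0, among 22 alternatives. Replicates of 1 group differed by more than counting error in each of 21 pairs (chi-square per degree of freedom 8.527 to 66.44). Named genes were the 12 highest and 12 lowest changes among called, non-overlapping genes with a mean of at least 100 (predicted and clone-named genes left out), up to 4 called members (or 2 uncalled) of each list, genes of interest from earlier results of these data, and called genes within 10 Mb of Khdc3. One gene that this rule names is not reported here. The members and gene lists were chosen with earlier results of these data known.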

Additional observations from a re-analysis of the deposited data

Results flagged for a closer look

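In a group of 4 or 6 libraries, 18 of 258 gene-by-group sets tested (6.98%) held a library far from the others by Dixon's test, which flags about 1 in 20 groups by chance. In the library labelled KO_star 13 these were Wdr72 (2.112, against 268.6 to 487.4 in the other 5), C920006O11Rik (6.336, against 42.35 to 55.89) and Gsta4 (848.0, against 440.5 to 497.8), all on chromosome 9. In KO_star 16 they were the pancreatic elastase gene Cela2a (764.0, against 7.095 to 27.36) and the muscle gene Ttn (784.6, against 9.505 to 34.29). KO_star 12 stood above the other KO_star libraries for the P450 gene Cyp2e1 (90150, against 60900 to 69500), the methyl-CpG binding gene Mbd1 (1529, against 654.6 to 884.1) and the neutrophil gene S100a8 (31.42, against 11.65 to 13.47). KO_star 14 did so for the ribosomal gene Rps2 (1938, against 209.3 to 273.6).

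Among the WT libraries, WT 25 had the lowest Sds (3604, against 4641 to 4850), Spp1 (136.1, against 181.5 to 191.5) and mt-Co1 (352300, against 377400 to 381100) and the highest Stat5b (2110, against 1602 to 1677). WT 26 had the lowest Cx3cr1 (88.71, against 179.6 to 206.6) and the highest F13b (7120, against 6437 to 6542) and Hlf (2217, against 1350 to 1397). WT 28 had the highest H2-Q10 (18250, against 16590 to 16660) and Rplp1 (3440, against 2747 to 2835).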

How the results depend on the processing

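No paired analysis was possible because no replicate number occurs in more than 1 group. Of the 114 genes called in KO_star against WT (75 higher, 39 lower), the count was 206 (125 and 81) with library weights, 68 (44 and 24) with only the 10 libraries, 5 (4 and 1) with a required log2 difference of 1 and 348 (208 and 140) with DESeq2. Leaving out single libraries gave 52 to 133 called genes, 35 to 86 higher and 14 to 47 lower, with 25 lower without KO_star 29. For KO_star against KO (229) the count was 367 with equal library totals, 837 with library weights, 4 with the required difference, 820 with DESeq2 and 132 to 255 without single libraries. For KO_star against WT_star (0; 1166 at an unadjusted p under 0.05) it was 14 with library weights, 62 with DESeq2 and 0 to 20 without single libraries (1 without KO_star 12). Within 10 Mb of Khdc3 (7) it was 4 without a filter or with equal totals, 0 with 10 libraries or the required difference, 11 with DESeq2 and 0 to 9 without single libraries. The cause was not tested. No direction of a named gene was reversed in a setting that gave it a value, which the filter of 50 did for 113 and DESeq2 for 127 of 130. edgeR called 114 genes in KO_star against WT, 104 of them shared with limma. Genes at a few reads in WT are limited by depth.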
